A study of Gallus gallus with 2 samples.

Results

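The genes described here make, sense and burn lipids: 38 genes of cholesterol synthesis and its control, and of fatty acid synthesis, elongation, desaturation, activation and oxidation. They were chosen by gene symbol, and every probe set whose platform annotation carries one of these symbols was taken. Of the 38 genes, 35 had a probe set, out of 13009 named genes on the array, and 30 of them gave a signal above the detection floor used here, out of 7977 such genes. IDI1, ACADM and HADHA had no probe set under these symbols and were not analysed here.

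The cells were DT40, an established B-cell line of the chicken, derived from a lymphoma of the bursa and much used to knock out genes. One array carried RNA of cells in which the gene of the histone variant H2A.Z-2 was knocked out constitutively (H2A.Z-2 KO). The other carried RNA of cells whose H2A.Z-1 gene was knocked out and whose H2A.Z-1 came from a transgene that tetracycline shuts off (H2A.Z-1 KO). Both cultures were given tetracycline at 2 µg/ml for 72 hours and grew at 38 °C with 10% fetal bovine serum and 1% chicken serum, which supplies lipids from outside the cell. No wild-type array was analysed here, so each value contrasts the knockouts with each other, and whether a gene went up in one or down in the other cannot be told apart. Each genotype has 1 array, which leaves no error between cultures and no test, and differences between clones and between genotypes cannot be told apart.

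Cells build cholesterol from acetyl-CoA through the mevalonate pathway, which ends in farnesyl diphosphate, and then through the sterol branch, which starts at squalene. The transcription factor SREBF2 switches on most of these enzymes when the endoplasmic reticulum runs low in sterol. SCAP carries SREBF2 to the Golgi for cleavage, and the INSIG proteins hold SCAP back when sterol is plentiful. SREBF1 does the same mainly for fatty acid synthesis, whereas oxidation in mitochondria removes fatty acids and is gated by CPT1A. Dividing lymphocytes need both products for new membrane.

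The deposited values are linear MAS5 signals, 1 per probe set, scaled to the same 2% trimmed mean of 500.2 in H2A.Z-1 KO and 500.1 in H2A.Z-2 KO. A signal under 98.2, the 60th percentile of both arrays, was treated as under the floor and set to it. All ratios below are log2 of the H2A.Z-1 KO signal minus log2 of the H2A.Z-2 KO signal, so a positive ratio means higher in H2A.Z-1 KO. A gene's ratio is the mean over its probe sets above the floor. For genes with several probe sets, the ratios of single probe sets had a pooled SD of 0.36 around their gene's ratio. This SD measures probe differences and not differences between cultures. It describes a single probe set and not a mean over several. Spiked-in control RNAs, of which 42 probe sets passed the floor, gave a mean ratio of 0.07 with an SD of 0.15. The labels were checked on the targeted genes. H2AFZ, the gene of H2A.Z-1, had a signal of 614.6 in H2A.Z-1 KO and 27642 in H2A.Z-2 KO, and H2AZ2 had 20911 in H2A.Z-1 KO and a value under the floor in H2A.Z-2 KO. B-cell markers were present: of 12 listed, 10 had a probe set, and all 10 were above the floor on at least 1 array. The counts of the other marker lists below use the same rule. Their summed signal was 49846 in H2A.Z-1 KO and 25882 in H2A.Z-2 KO, a difference whose part in the lipid genes was not tested. The B-cell markers did not move one way: 7 had a positive and 3 a negative ratio. CD79B differed 8.76-fold, BCL11A at least 8.23-fold, EBF1 at least 4.29-fold and BTK 2.61-fold toward H2A.Z-1 KO, whereas TNFRSF13B differed 2.59-fold toward H2A.Z-2 KO and PAX5 had a ratio of -0.68. The BCL11A value averages 4 probe sets with ratios from 0.31 to 5.25, and the EBF1 value 2 probe sets at 1.21 and 2.99. All of these probe sets were under the floor in H2A.Z-2 KO, as was CXCR5, which had 155.1 in H2A.Z-1 KO. These 3 markers were thus above the floor only in H2A.Z-1 KO. In bulk RNA, fewer cells of a type and less RNA per cell cannot be told apart. Markers of hepatocytes and adipocytes, tissues with high lipid synthesis, were mostly under the floor: 2 of 8 with a probe set in each list were above it. ALB, APOB, FABP4 and PLIN1 were among those under it, and the summed signals, H2A.Z-1 KO first, were 902.6 and 916.1 for hepatocyte markers and 467.6 and 674.9 for adipocyte markers. T-cell markers had 2 of 7 above the floor, with summed signals of 1220 and 714.5. CD247 gave 916.0 and 301.5 of these, and CD8A was under the floor in H2A.Z-1 KO and stood at 157.4 in H2A.Z-2 KO. The other markers above the floor were near it (TTR, CEBPA and LEPR, with no signal above 148.3) or differed little (APOA1, a ratio of 0.09).

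The lipid genes as a whole differed little between the knockouts. Of the 30 measured genes 29 lay within 2-fold, 19 had a positive and 11 a negative ratio, and their median ratio was 0.16. Over all 7977 measured named genes the median was -0.06, and 42.6% had a positive ratio. A single lipid gene passed 2-fold, PMVK, higher in H2A.Z-2 KO, where 3.8% of all measured genes did so. None passed 2-fold toward H2A.Z-1 KO, where 2.87% of all genes did. With a threshold of 1.5-fold, INSIG1 and INSIG2 were higher in H2A.Z-1 KO, 2 of 30 against a background of 7.56%. PMVK, ACSS2 and CPT1A were higher in H2A.Z-2 KO, 3 of 30 against 11.6%. In either direction, 6.67% of all measured genes passed 2-fold and 19.2% passed 1.5-fold. Of the lipid genes, 3.33% (1 gene) passed 2-fold and 16.7% passed 1.5-fold. Neither share is above the background of the array, so the counts show no excess of strongly different lipid genes.

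**Figure D1:**
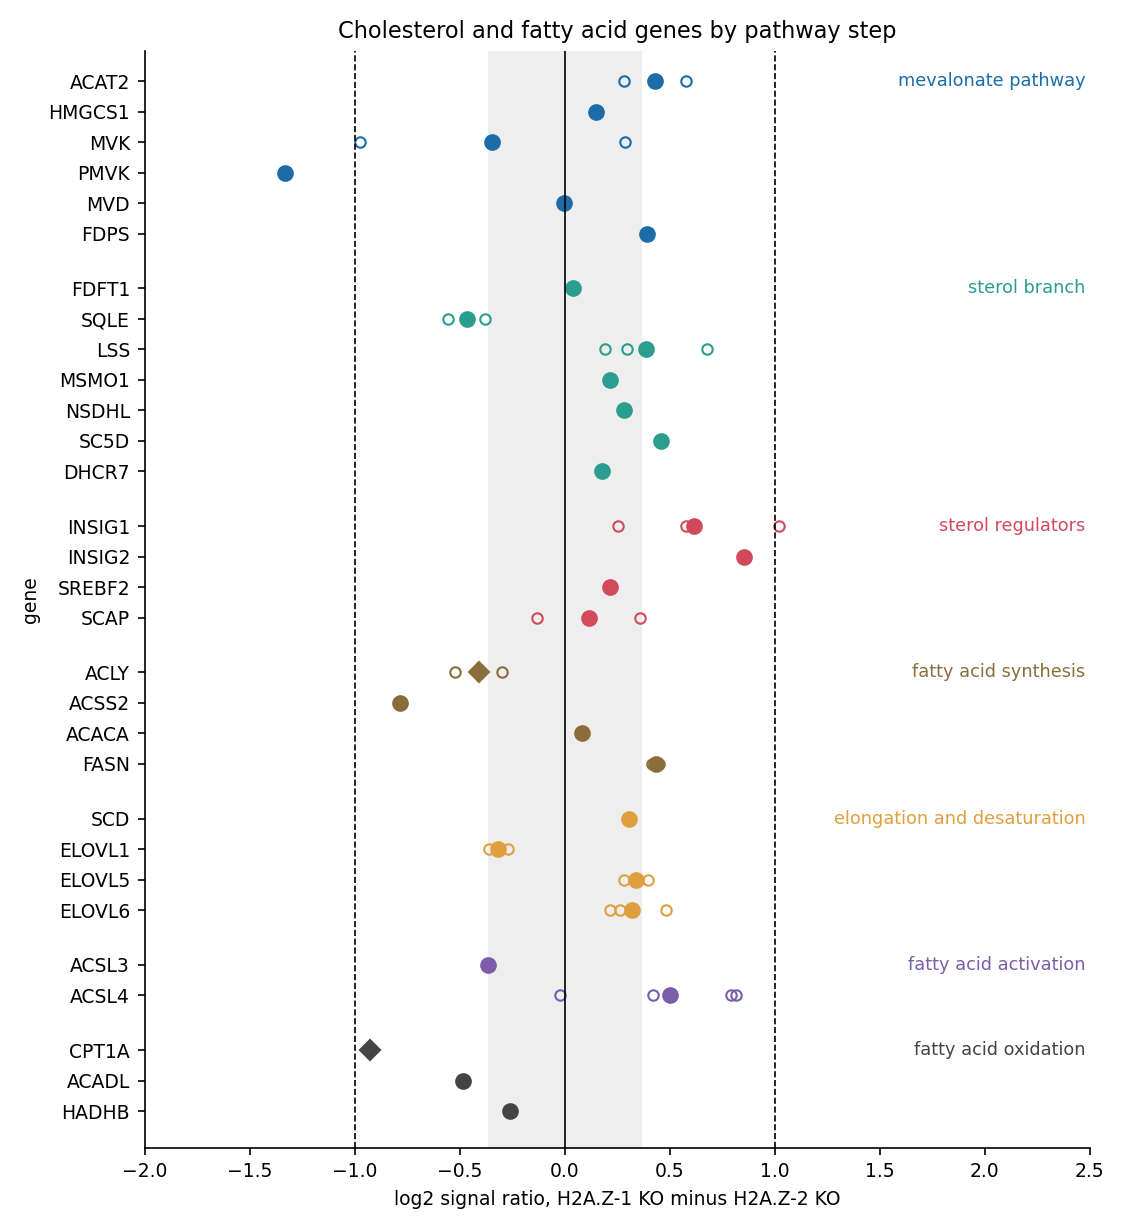
Log2 signal ratio of each measured lipid gene (x axis, positive where higher in H2A.Z-1 KO), with genes on the y axis in pathway order and coloured by group. Filled symbols are gene means, diamonds mark genes with a probe set under the floor on 1 array (their ratio is a bound), open circles are single probe sets where a gene has several, dashed lines mark 2-fold, and the grey band is ± 0.36, the pooled SD between probe sets of a gene. PMVK at -1.33 is the only gene mean outside the dashed lines, and INSIG2 at 0.86 is the highest.

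In the mevalonate pathway, 6 of 7 listed genes were measured, 3 with a positive and 3 with a negative ratio. PMVK, phosphomevalonate kinase, which adds the second phosphate to mevalonate, had a signal of 1901 in H2A.Z-1 KO and 4791 in H2A.Z-2 KO, a difference of 2.52-fold and a ratio of -1.33. Of all measured genes, 1.99% lay at least as far in this direction. The value rests on 1 probe set, which is bright on both arrays. It stayed between -1.35 and -1.28 under changes of scaling. The alternatives of floor, probe set choice and naming left it at -1.33, but they could hardly change a single bright probe set. PMVK lies on chromosome 25, and the measured genes next to it in the chicken RefSeq gene order did not share its ratio: ADAR stood at -0.03 on one side and SHC1 at -0.35 on the other. The 85 measured genes of that chromosome had a median of -0.06.

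The enzymes on either side of PMVK differed less. MVK, mevalonate kinase, which acts just before it, had 2 probe sets that disagreed. One gave 1976 in H2A.Z-1 KO and 1617 in H2A.Z-2 KO, a ratio of 0.29, and the other 231.0 and 454.5, a ratio of -0.98. The mean of -0.34 therefore hides probe sets of opposite sign, and no direction can be given for MVK. MVD, the decarboxylase just after PMVK, had nearly equal signals of 969.8 and 970.7. HMGCS1, which condenses acetoacetyl-CoA with acetyl-CoA, gave 2840 and 2558, a ratio of 0.15. ACAT2, the cytosolic thiolase that starts the pathway, stood at 0.43, with probe set signals of 633.9 and 424.3 for one and 10965 and 9001 for the other. Both ACAT2 probe sets were higher in H2A.Z-1 KO, by 0.58 and 0.28. FDPS, which makes farnesyl diphosphate and which also lies on chromosome 25, gave 2930 and 2236, a ratio of 0.39. The group median was 0.07 and the group mean -0.12, so these summaries differed in sign.

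The sterol branch had 7 of 8 genes measured, of which 6 had a positive and 1 a negative ratio, with a median of 0.21 and none past 1.5-fold. SQLE, squalene epoxidase, the first oxygen-requiring step and a rate-limiting enzyme of the branch, was the exception. Its probe sets gave 4642 in H2A.Z-1 KO against 6829 in H2A.Z-2 KO and 10210 against 13266, for a ratio of -0.47. Both SQLE probe sets were thus lower in H2A.Z-1 KO, by 1.38-fold on average. LSS, lanosterol synthase, which closes the ring in the next step, had the opposite sign on all 3 of its probe sets, from 0.19 to 0.68, with a mean of 0.39. Its brightest probe set gave 3168 and 1980. All LSS probe sets are ambiguous, meaning that the suffix of their names marks possible matches to more than one transcript.

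The other measured genes of the branch had small positive ratios. SC5D, the sterol C5-desaturase, gave 233.7 in H2A.Z-1 KO and 169.9 in H2A.Z-2 KO on its 1 probe set above the floor, a ratio of 0.46. NSDHL, a sterol dehydrogenase of the C4-demethylation complex, gave 2202 and 1810, a ratio of 0.28. MSMO1, the C4-methyl oxidase of the same complex, gave 15576 and 13422, a ratio of 0.21. DHCR7, which makes cholesterol from 7-dehydrocholesterol, gave 3981 and 3517, a ratio of 0.18. Its ratio turned to -0.06 with a floor at the 40th percentile and to -0.07 without a floor, where its second, dim probe set entered. FDFT1, squalene synthase, the entry step, stood at 0.04, with signals of 4893 and 4767. All of these but SC5D differ by less than the 0.36 SD between probe sets of a gene. CYP51A1, the lanosterol demethylase, was under the floor on both arrays on its 1 probe set, at 34.7 and 52.2, so its ratio could not be measured.

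**Figure D2:**
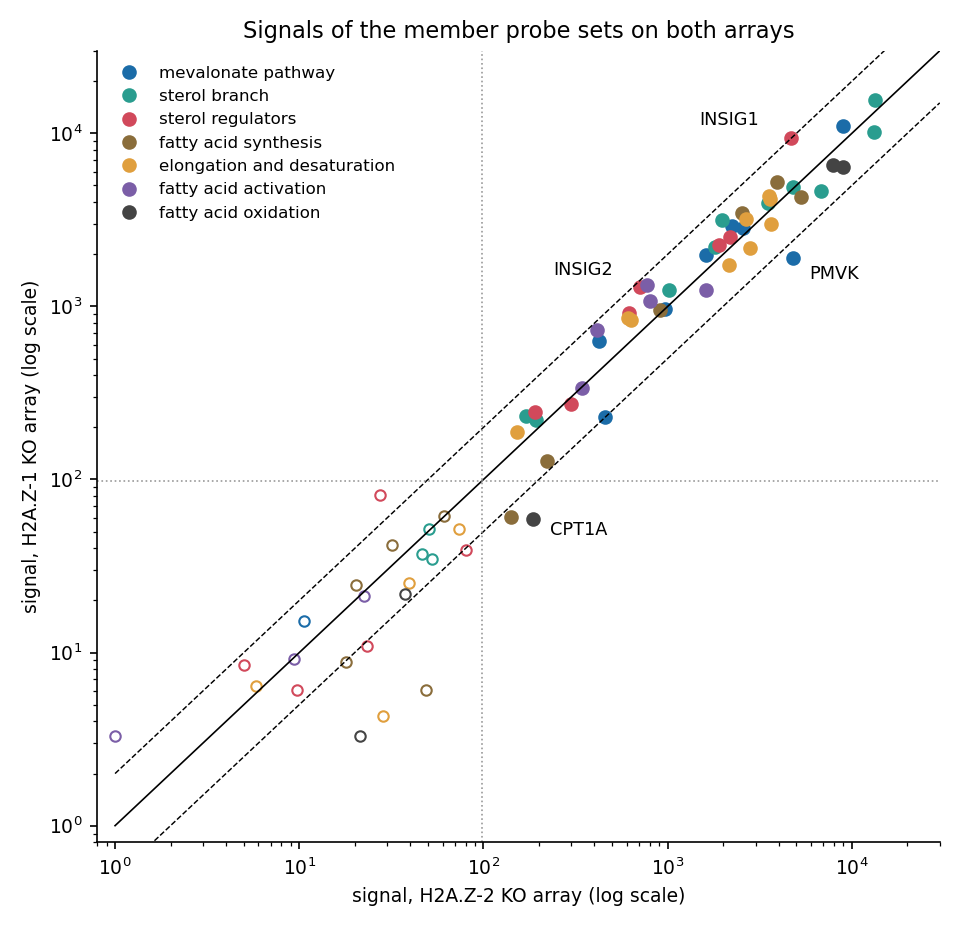
Signal of each of the 71 lipid probe sets on the H2A.Z-2 KO array (x axis) and the H2A.Z-1 KO array (y axis), both on log scales and coloured by group. Filled points are the 48 probe sets that passed the floor on either array, open points the 23 under it on both, the solid line marks equal signals, dashed lines 2-fold, and dotted lines the floor of 98.2. The filled points lie close to the solid line from about the floor up to 15576, with PMVK, CPT1A and the dim ACLY probe set below the lower dashed line and the brightest INSIG1 probe set just above the upper one.

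INSIG2 and INSIG1 had the highest ratios of the 30 measured genes. INSIG2, which anchors SCAP in the endoplasmic reticulum, had a signal of 1287 in H2A.Z-1 KO and 711.1 in H2A.Z-2 KO, a difference of 1.81-fold and a ratio of 0.86. Of all measured genes, 3.74% lay at least as far in this direction. The value rests on 1 probe set. It ran from 0.85 to 0.91 under changes of scaling, whereas the other alternatives could hardly change a single bright probe set. The neighbours of INSIG2 on chromosome 7 did not share its ratio, with C2orf76 at -0.05 and CCDC93 at 0.26. INSIG1, the close relative of INSIG2 and itself a target of SREBP factors in mammals, had 3 probe sets, each higher in H2A.Z-1 KO. They gave 917.0 and 615.0, 2275 and 1905, and 9448 and 4652, with ratios of 0.58, 0.26 and 1.02. Their mean of 0.62 corresponds to 1.53-fold, and with the brightest probe set alone INSIG1 passed 2-fold. The probe sets at 0.26 and 1.02, the brightest among them, are ambiguous. Without them INSIG1 stood at 0.576, just short of 1.5-fold.

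SREBF2 itself and SCAP differed little. SREBF2 gave 2520 in H2A.Z-1 KO and 2168 in H2A.Z-2 KO, a ratio of 0.22. SCAP had 2 dim probe sets above the floor, one with 244.3 and 190.3 and the other with 272.7 and 298.7. They disagreed in sign, with a mean of 0.11. SREBF1 was under the floor on both arrays on all 3 of its probe sets, whose signals ran from 6.09 to 79.95. The 4 measured regulators were all on the positive side, with a median of 0.42, but SCAP changed sign with the brightest probe set, to -0.13.

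Fatty acid synthesis had all 4 genes measured, 2 with a positive and 2 with a negative ratio, too few to read a pattern by step. The 2 with a negative ratio, ACSS2 and ACLY, supply acetyl-CoA. ACSS2, which makes it from acetate, gave 128.3 in H2A.Z-1 KO and 220.9 in H2A.Z-2 KO, a difference of 1.72-fold and a ratio of -0.78. These signals are close to the floor and come from 1 of 4 probe sets, an ambiguous one. ACLY, ATP citrate lyase, which makes acetyl-CoA from citrate, gave 4292 and 5278 on its bright probe set, a ratio of -0.30. Its dim probe set was under the floor in H2A.Z-1 KO and at 140.9 in H2A.Z-2 KO, so that the mean difference is at least 1.33-fold. ACACA and FASN were the 2 with a positive ratio. ACACA, acetyl-CoA carboxylase, the committed step, gave 958.6 and 906.2, a ratio of 0.08. FASN, fatty acid synthase, was higher in H2A.Z-1 KO on both of its probe sets, with 5229 against 3918 and 3470 against 2542. Its ratios of 0.42 and 0.45 are close to each other, and their mean is 1.35-fold. The group median of -0.16 turned to 0.08 without ACSS2, as happened without ambiguous probe sets and with a floor at the 80th percentile.

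Elongation and desaturation had 4 of 6 genes measured. The elongases differed from each other in sign, and each did so with all of its probe sets. ELOVL1, which elongates saturated and monounsaturated very long chains, was lower in H2A.Z-1 KO on all 3 probe sets, from -0.36 to -0.27, with 3011 in H2A.Z-1 KO against 3635 in H2A.Z-2 KO on the brightest. ELOVL5, which elongates polyunsaturated chains, was higher on both of its probe sets, with 4345 against 3571 on the brighter and a mean ratio of 0.34. ELOVL6, which extends palmitate to stearate, was higher on all 3, from 0.21 to 0.48, with 4149 against 3575 on the brightest and a mean of 0.32. The sizes, from 1.25-fold to 1.27-fold, are small, and no cultures were repeated to set them against. SCD, the stearoyl-CoA desaturase, gave 188.4 and 152.5, a ratio of 0.31 near the floor. FADS1 and FADS2, the desaturases of polyunsaturated chains, were under the floor on both arrays on all 4 of their probe sets, the highest signal being 73.2.

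Long-chain acyl-CoA synthetases activate fatty acids for all further use. ACSL4, which prefers arachidonate, had 4 probe sets above the floor. They gave 1336 in H2A.Z-1 KO against 772.4 in H2A.Z-2 KO, 730.4 against 414.3, 1079 against 805.9, and 336.1 against 341.0. The first 3 were higher in H2A.Z-1 KO by 0.79, 0.82 and 0.42 and the last was near equal at -0.02, for a mean ratio of 0.50. ACSL3, a synthetase of the endoplasmic reticulum and lipid droplets, lay on the other side, with 1249 and 1607 on 1 probe set and a ratio of -0.36. ACSL1 was under the floor on both arrays, with no signal above 9.31.

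The 3 measured genes of fatty acid oxidation were all higher in H2A.Z-2 KO, with a median of -0.49. CPT1A, which loads fatty acids onto carnitine for entry into mitochondria, was under the floor in H2A.Z-1 KO, at 59.3, and at 186.7 in H2A.Z-2 KO, a difference of at least 1.90-fold. Of its 3 probe sets, 1 was above the floor. ACADL, the long-chain acyl-CoA dehydrogenase, gave 6370 in H2A.Z-1 KO and 8917 in H2A.Z-2 KO, a ratio of -0.49 and 1.40-fold. HADHB, the thiolase subunit of the trifunctional protein, gave 6582 and 7886, a ratio of -0.26. The ACADL and HADHB differences rest on 1 bright probe set each, and the ACADL probe set is ambiguous.

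**Figure D3:**
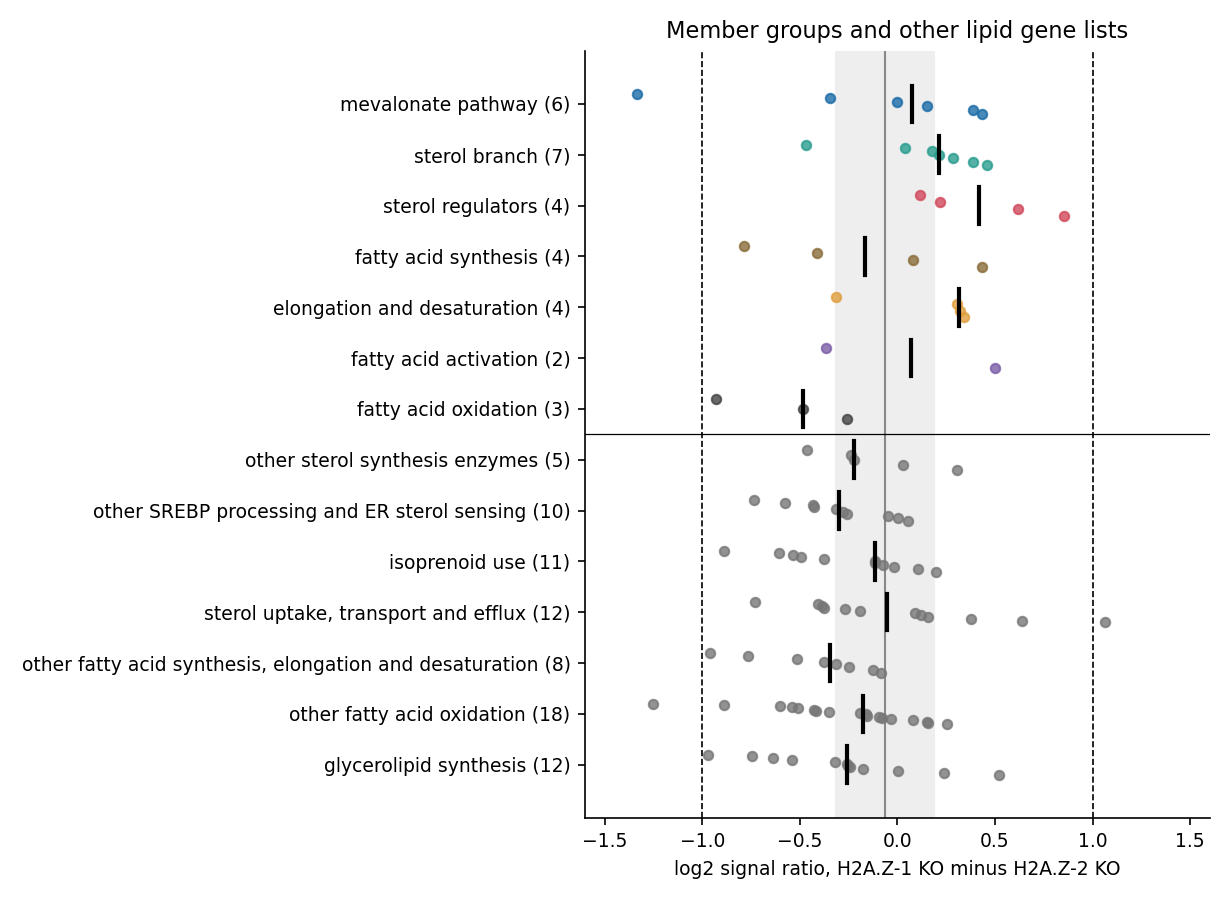
Log2 signal ratio (x axis, positive where higher in H2A.Z-1 KO) of each measured gene, as 1 point, in the 7 groups of lipid genes above the horizontal line and in 7 lists of other lipid genes below it, with the number measured in brackets. Black bars are list medians, the grey line and band are the median and quartiles of all 7977 measured named genes (-0.06, from -0.32 to 0.19), and dashed lines mark 2-fold. Sterol regulators have the highest median, 0.42, and fatty acid oxidation the lowest, -0.49.

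Other genes of the same pathways were taken from 7 lists with 117 genes, of which 76 were measured. Of these 19 had a positive and 57 a negative ratio, with a median of -0.25, against 42.6% positive and a median of -0.06 over all measured genes. In each direction 1 passed 2-fold, where 2.87% of all genes did so toward H2A.Z-1 KO and 3.8% toward H2A.Z-2 KO. Past 1.5-fold were 2 of 76 toward H2A.Z-1 KO, against 7.56% of all genes, and 12 of 76 toward H2A.Z-2 KO, against 11.6%. Together these made 18.4% of the 76 against 19.2% of all genes. The pooled number of calls is thus near the background, with fewer toward H2A.Z-1 KO and somewhat more toward H2A.Z-2 KO than the background of each direction. Of the further genes of fatty acid oxidation 18 were measured, 4 with a positive and 14 with a negative ratio, and their median was -0.18. HSD17B4, a multifunctional enzyme of peroxisomal oxidation, differed 2.38-fold toward H2A.Z-2 KO, with 1298 in H2A.Z-1 KO and 3094 in H2A.Z-2 KO on 1 probe set. CPT2, which acts after CPT1A on the inner mitochondrial membrane, differed 1.85-fold in the same direction, with 589.1 and 1091 on 1 ambiguous probe set. On the positive side of this list stood SLC25A20, the carnitine carrier, at 0.15, with probe sets at -0.10 and 0.41. ETFA, an electron carrier under the floor in H2A.Z-2 KO, also stood there at 0.25, or -0.19 without a floor. Like the CPT1A, ACADL and HADHB ratios, the HSD17B4 and CPT2 ratios kept their sign under every alternative that measured them. Each of these ratios rests on 1 measured probe set, so leaving out or choosing probe sets could not change its sign.

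Among the lipid genes of fatty acid synthesis, elongation and desaturation, 5 ratios were positive and 3, of ACSS2, ACLY and ELOVL1, were negative. Of 19 further genes with a probe set, 8 were measured, and all 8 had a negative ratio. Their median was -0.35. Of all measured genes, 42.6% had a positive ratio. Some of the 8 were small or mixed. ME1 stood at -0.08 with 1 array under the floor, SCD5 at -0.13, and HACD2 at -0.32 with probe sets at -0.72 and 0.08. MCAT, a transferase of mitochondrial fatty acid synthesis, had the lowest ratio, -0.96, with all 3 probe sets between -1.14 and -0.82. ACSBG2, an acyl-CoA synthetase, followed at -0.77. Of 12 measured genes of glycerolipid synthesis 9 were negative, with a median of -0.26. PCYT1A, the regulated enzyme of phosphatidylcholine synthesis, stood at -0.97, which shrank to -0.05 with a floor at the 80th percentile. AGPAT3, an acyltransferase, stood at -0.74 on 1 measured probe set near the floor, with 112.1 in H2A.Z-1 KO and 187.8 in H2A.Z-2 KO. By contrast, the choline and ethanolamine phosphotransferase CEPT1 stood at 0.52 and the phosphatidylserine synthase PTDSS1 at 0.24. CEPT1 and PTDSS1 turned to -0.33 and -0.62 without a floor.

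Around the sterol pathway, the genes of sterol transport went both ways, 6 and 6, with a median of -0.05 that ran from -0.31 to 0.14 over the alternatives. NPC1, which exports cholesterol from lysosomes and shares a sterol-sensing domain with SCAP, differed at least 2.09-fold toward H2A.Z-1 KO. Its ratio of 1.06 is the mean of probe sets at 0.93 and 1.20, the second a bound because its signal of 76.4 in H2A.Z-2 KO is under the floor, and it ran from 0.93 to 1.24 over the alternatives. OSBPL2, an oxysterol-binding protein, was at 0.64. On the other side stood LIPA, the lysosomal acid lipase that frees cholesterol from its esters, with a difference of at least 1.66-fold (a ratio of -0.73, some of its probe sets being under the floor in H2A.Z-1 KO), and NPC2, the soluble partner of NPC1, at -0.41. Of 10 measured genes of SREBP processing and sterol sensing in the endoplasmic reticulum 8 were negative, with a median of -0.30. SEC24D, a coat protein of the vesicles that leave the endoplasmic reticulum, had a ratio of -0.74 over 5 probe sets. It differed at least 1.67-fold toward H2A.Z-2 KO. MBTPS1, the first protease that cuts SREBP factors, stood at -0.58, with dim signals of 138.2 in H2A.Z-1 KO and 206.1 in H2A.Z-2 KO. ERLIN1 at 0.00 and UFD1L at 0.05 were the highest of that list. The ERLIN1 value averages 4 probe sets with ratios from -0.34 to 0.41, and was 0.41 with the brightest one. Genes that use isoprenoids, 11 measured, had a median of -0.11, with FNTB, the farnesyltransferase subunit, at -0.61, GGPS1 at 0.11 and DHDDS at 0.20. COQ2, of ubiquinone synthesis, stood at -0.89 but turned to 0.56 without a floor, and DHDDS turned to -0.32 with its brightest probe set. The 5 further sterol enzymes had a median of -0.22, or 0.02 at the highest among the alternatives, with ACAT1 at -0.46, HSD17B7 at -0.24, CNBP, a zinc finger protein once linked to sterol response elements, at 0.03, and LBR, the sterol reductase of the nuclear envelope, at 0.30, or -0.05 at its lowest.

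Bright probe sets differ less between arrays than dim ones, so all genes were also split at the median signal of the lipid genes. This comparison was chosen after the data were seen. The median mean signal of the 30 lipid genes was 2005. Among the 1668 named genes at or above that signal, 10.7% passed 1.5-fold, and 2 of the 15 lipid genes there did, INSIG1 and PMVK. Among dimmer genes 21.5% passed 1.5-fold, and 3 of 15 lipid genes did, INSIG2, ACSS2 and CPT1A. The dimmer genes run from the floor up to 2005 and were not matched more closely in brightness. The medians of the bright lipid genes and of all genes as bright were 0.18 and -0.02.

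**Figure D4:**
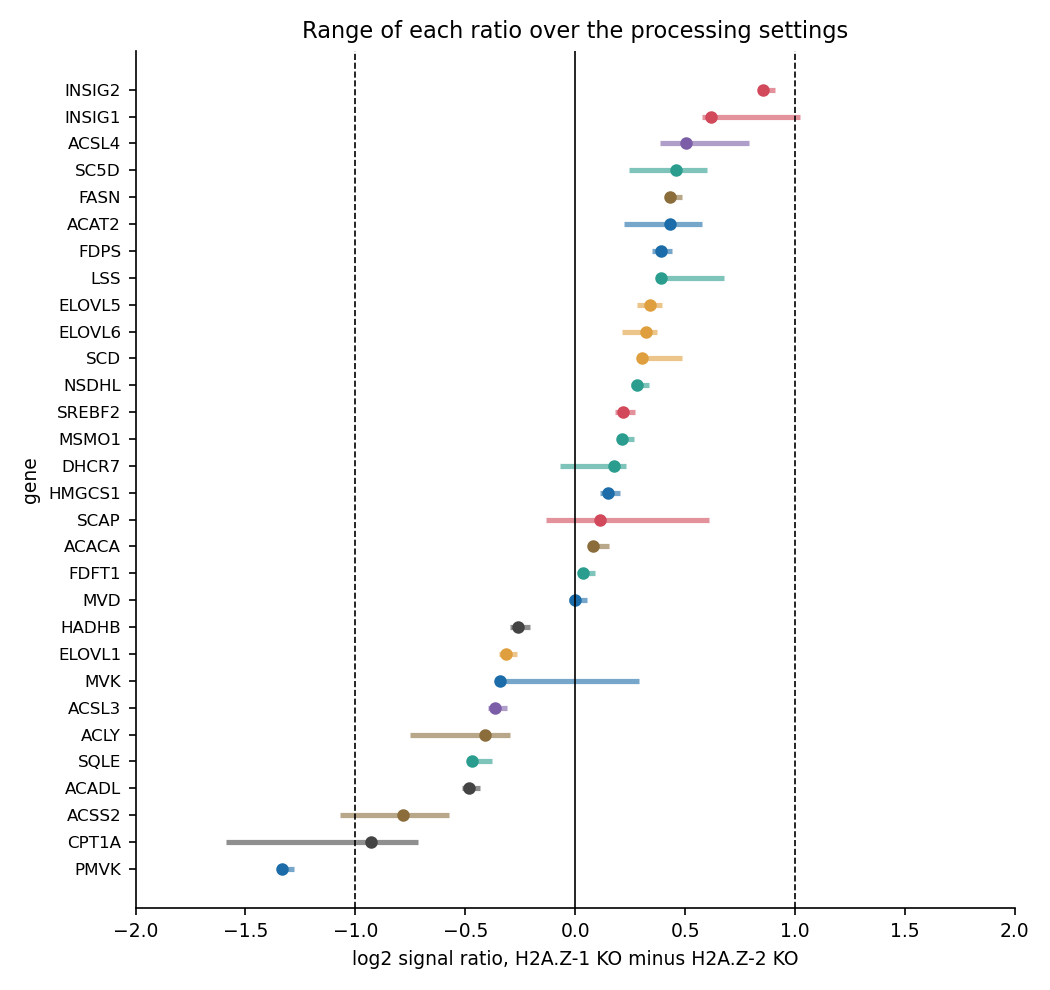
Log2 signal ratio (x axis, positive where higher in H2A.Z-1 KO) of the 30 measured lipid genes (y axis, ordered by their ratio and coloured by group as in the other plots). Points are the reported ratios, bars span the lowest and highest value over the reported setting and the alternatives that measured the gene, and dashed lines mark 2-fold. The bars of 26 genes stay on 1 side of 0, and those of MVK, MVD, SCAP and DHCR7 cross it.

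Across the alternatives, 26 of the 30 genes kept 1 sign, 17 of them positive and 9 negative, as the plot of ranges over settings shows. The 4 that did not, MVK, MVD, SCAP and DHCR7, had reported ratios of at most 0.34 in size. For the 18 genes with 1 measured probe set, leaving out or choosing probe sets could not change the sign. The ranges differed in width between genes. FASN ran from 0.41 to 0.49 and SQLE from -0.49 to -0.38. INSIG1 ran from 0.58 to 1.02, ACAT2 from 0.22 to 0.58 and LSS from 0.39 to 0.68, although the probe sets of each share a sign. Near the floor, CPT1A ran from -1.59 to -0.71 and ACSS2 from -1.07 to -0.58. Of the 12 lipid genes with several measured probe sets, 9 had all probe sets of 1 sign and 3, MVK, SCAP and ACSL4, did not.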

How the data were processed

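Biotin-labelled RNA of 1 culture of each knockout was hybridised to Affymetrix arrays, per the labels' protocols. The deposited table holds an intensity for each of 38535 probe sets on a linear scale. MAS5 made these, per the submitters' processing notes, and no version or setting of it is named there. The 2 arrays share a trimmed mean, so a difference in total RNA per cell would not show.

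From these, 96 control probe sets were left out, and signals under the 60th percentile of the rest (98.2) were set to that floor. Probe sets under it on both arrays were dropped, and log2 ratios were averaged per gene. Names came from the platform annotation: 27178 probe sets had 1 symbol, 177 several and 11180 none. Chromosomes and gene order came from a RefSeq table of assembly GRCg7b; no coordinates are printed. Thresholds were 2-fold and 1.5-fold. Probe sets were called ambiguous, with possible matches to more than one transcript, from the suffix of their names.

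The genes and lists were chosen with earlier results of these data known. All 38 lipid genes are named, and of each other list the genes past 2-fold and the 2 farthest in each direction. Beyond this rule, ME1, SCD5 and HACD2 are named for small or mixed ratios. CXCR5, ALB, APOB, FABP4 and PLIN1 are named as markers under the floor on 1 or both arrays. The number of arrays limits the precision. Alternatives were quantile normalization, median centring, subtraction of a lowess trend on brightness (fraction 0.3, 3 iterations, statsmodels 0.14.6), a floor at the 40th or the 80th percentile, a pseudocount of 1 with no floor, leaving out ambiguous probe sets, each gene's brightest probe set, updated symbols, and means for medians. The steps were tested on simulated data. A planned promoter motif search was not run.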

Additional observations from a re-analysis of the deposited data

How the results depend on the processing

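No paired analysis was possible because each genotype has 1 array, and for the same reason no replicate could be left out. Of 258 single-gene ratios recomputed under alternatives, 5 moved by more than the 0.36 SD between probe sets: MVK with the floor at the 80th percentile, CPT1A and SCAP without a floor, and MVK and INSIG1 with the brightest probe set. Of 116 recomputed summary values 7 moved by that much or, for counts, by over 1.5 times. Many of the 258 ratios could not move. Updated symbols changed no ratio, and the brightest probe set could change none of the 18 genes with 1 measured probe set. The lipid genes past 2-fold toward H2A.Z-2 KO, 1 as reported, were 2 of 33 with the floor at the 40th percentile, which admitted SREBF1. Of all genes, 5.97% passed there. Without a floor they were 4 of 35, against 15.1% of all genes, and ACSS2, CPT1A and the very dim FADS2 joined PMVK. Those past 1.5-fold toward H2A.Z-2 KO, 3 as reported, were 1 of 25 with the floor at the 80th percentile, which dropped the dim genes. Of all genes, 6.97% passed there. Without a floor they were 6 of 35, against 26.8% of all genes. With the brightest probe set per gene, 1 of 30 lipid genes, INSIG1, passed 2-fold toward H2A.Z-1 KO, against 3.22% of all genes. In the same direction 4 of 30 passed 1.5-fold, against 8.30% of all genes. The median of fatty acid activation was 0.79 without ambiguous probe sets, because ACSL4 alone was left. The median of the measured lipid genes stayed positive throughout, from 0.08 with the floor at the 40th percentile to 0.22. The mean in place of the median was 0.02. The number of lipid genes measured ran from 23 without ambiguous probe sets to 35 without a floor. The medians of the sterol branch, the regulators, activation and oxidation kept their sign under all 10 alternatives, whereas those of the mevalonate pathway, of fatty acid synthesis and of elongation and desaturation did not. The median of all named genes shifted by at most 0.09 in size. Alternatives for the other lipid lists were added after seeing the data. Low signal limits CPT1A, ACSS2, SCD, SC5D and SCAP, and for SREBF1, CYP51A1, FADS1, FADS2 and ACSL1 no difference was detectable at these signals.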
